A study of Mus musculus with 12 samples.

Results

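The matrix metalloproteases (MMPs), the ADAM and ADAMTS proteases and the Timps, the tissue inhibitors of these enzymes, were taken as every gene symbol of the deposited table with the stem Mmp, Adam, Adamts or Timp followed by a number. The rule gave 79 genes of 24493 in the table: 23 Mmp, 33 Adam, 19 Adamts and 4 Timp genes. Their transcripts were read in 12 RNA-seq libraries from the mouse pancreatic tumour line 6649c2, whose cells had been put under the skin of mice and sorted out of the tumours that grew, with C57BL/6 given as the strain. The 4 genotypes had 3 libraries each and are labelled WT (wild type) and EgfrKO, Klf5KO or Smad4KO, knockouts named for the receptor Egfr, the transcription factor Klf5 and the TGF-beta pathway mediator Smad4. The label WT concerns these 3 genes, and other alleles that the tumour line may carry in all 4 groups are not stated. Whether each knockout line was grown from 1 clone or kept as a pool, whether replicates came from separate animals, how old the hosts were and which gate was sorted are points that the labels do not state. A difference that comes with a clone cannot be told apart from one that comes with the knockout, and p-values measure the spread between these libraries, which may be technical.

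Values are TPM, a share of all transcripts of a library in which transcript length is allowed for, so levels of different genes can be set side by side. A gene was tested if it reached 1 TPM in at least 3 libraries, which 33 of the 79 members did: 12 Mmp, 9 Adam, 9 Adamts and 3 Timp genes. Of the 46 others, 44 stayed under 1 TPM in every library and 11 were listed at 0 in all 12, among them Mmp1b and the ADAM genes Adam18, Adam24 and Adam29. Mmp7 and Mmp8 reached it, but in fewer than 3 libraries. The tested member Adamts12 reached 1 TPM only in Klf5KO-labelled libraries and so entered through the group where it is high.

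MMPs are zinc enzymes that cut collagens, laminin, elastin and other matrix proteins, and most are secreted as inactive precursors. ADAMs are membrane proteases that release the outer part of cell surface proteins, growth factor ligands among them, although several ADAMs have no protease activity. ADAMTS enzymes are secreted and trim procollagens or cut the large proteoglycans aggrecan and versican. Timps bind the active site of MMPs and, for Timp3, of ADAMs and ADAMTS enzymes as well. In pancreatic carcinoma these genes are expressed both by the tumour cells and by the fibroblasts and macrophages around them.

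The targeted genes were looked at first. Egfr had a mean of 13.1 ± 0.85 TPM in the 3 WT libraries (± SD) and 4.29 ± 0.759 in the 3 of EgfrKO, and Smad4 was 75.5 ± 4.45 in WT and 30.7 ± 2.39 in Smad4KO. Klf5 was 112 ± 16.8 TPM in WT and 93.8 ± 6.35 in the libraries labelled Klf5KO, whose groups overlap, so transcript level does not check that label and the group is called Klf5KO-labelled throughout. The keratins Krt8, Krt18 and Krt19, markers of ductal tumour epithelium, had group means of 741 TPM or more in all 4 genotypes, while the epithelial surface marker Epcam was 13.5 ± 1.84 TPM in WT, 1.3 ± 0.0861 in EgfrKO, 0.539 ± 0.196 in Klf5KO-labelled and 39.5 ± 2.38 in Smad4KO libraries. Of 10 tested epithelial markers 8 fell and 1 rose in Klf5KO-labelled libraries, Krt18 and Krt19 among those that fell and Krt7 from 61.6 ± 3.15 to 5.07 ± 1.34 TPM, while 5 rose and 3 fell in EgfrKO and 9 rose and 1 fell in Smad4KO. Markers of other cells were present too. The summed TPM of 12 macrophage markers was 895 to 1642 in WT, 1378 to 1481 in EgfrKO, 1189 to 1829.8 in Klf5KO-labelled and 409 to 1045 in Smad4KO libraries, and that of 13 fibroblast markers was 65.9 to 165, 162 to 173, 372 to 751 and 72.5 to 104. In the same order of groups, T and NK cell markers summed to 5.13 to 10.8, 16.1 to 19.1, 18.8 to 25 and 9.82 to 15.3 TPM, and endothelial markers to 2.59 to 3.66, 7.47 to 9.88, 13.3 to 17.5 and 2.61 to 3.61. Both had their highest mean sum in Klf5KO-labelled libraries, where 5 of 8 and 2 of 2 tested rose. In EgfrKO 5 of 8 and 2 of 2 rose as well, and its T and NK cell sums overlapped those of Klf5KO-labelled libraries. Of all tested genes 55.2% rose and 11.1% fell in Klf5KO-labelled libraries, 31.3% and 12% in EgfrKO, and 32.2% and 17.4% in Smad4KO. Neutrophil markers summed to 12.7 to 25.5, with the neutrophil granule gene Mpo listed at 0 in WT, EgfrKO and Smad4KO. In such bulk libraries fewer cells of a type and less RNA per cell cannot be told apart. Fold changes of all genes were centred above 0, with a median log2 value of 0.14 in EgfrKO, 0.31 in Klf5KO-labelled and 0.10 in Smad4KO libraries. Calls that scaling by the median of ratios changes are therefore given beside the unscaled ones.

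Sequence is shown first for a group of Mmp genes that lie side by side and fell together in Smad4KO. Of the 23 Mmp genes, 10 form a cluster on chromosome 9 (7272514 to 7699585 in GRCm38.p6, the assembly that mm10 represents), in the order Mmp13, Mmp12, Mmp1b, Mmp3, Mmp1a, Mmp10, Mmp8, Mmp27, Mmp20 and Mmp7, a span of 427.1 kb. Only Mmp13, Mmp12, Mmp3 and Mmp10 of the cluster were tested, and the other 6 were too low. The 250 bases before each annotated start are given 5′ to 3′ on the coding strand, from RefSeq's GRCm38.p6 table, with every match to the AP-1 motif TGANTCA or the PEA3 motif AGGAAG (either strand) in capitals. Mmp12 has 2 annotated starts and both are shown. Mmp15, which is on chromosome 8 and rose in Smad4KO, where the 4 others fell, is shown for contrast. The windows are chr9:7272264-7272513 for Mmp13, chr9:7344147-7344396 and chr9:7347124-7347373 for the starts of Mmp12, chr9:7445572-7445821 for Mmp3, chr9:7502092-7502341 for Mmp10 and chr8:95352046-95352295 for Mmp15, all on the plus strand.
Mmp13: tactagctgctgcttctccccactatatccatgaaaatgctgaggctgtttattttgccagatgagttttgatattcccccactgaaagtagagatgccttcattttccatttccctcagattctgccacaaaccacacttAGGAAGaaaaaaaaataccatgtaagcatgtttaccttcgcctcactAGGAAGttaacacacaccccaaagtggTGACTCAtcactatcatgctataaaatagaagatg
Mmp12, first start: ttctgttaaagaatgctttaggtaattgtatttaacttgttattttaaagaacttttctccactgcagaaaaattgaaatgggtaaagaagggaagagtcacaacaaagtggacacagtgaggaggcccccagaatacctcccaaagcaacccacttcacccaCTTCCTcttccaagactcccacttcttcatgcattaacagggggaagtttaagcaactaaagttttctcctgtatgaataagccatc
Mmp12, later start: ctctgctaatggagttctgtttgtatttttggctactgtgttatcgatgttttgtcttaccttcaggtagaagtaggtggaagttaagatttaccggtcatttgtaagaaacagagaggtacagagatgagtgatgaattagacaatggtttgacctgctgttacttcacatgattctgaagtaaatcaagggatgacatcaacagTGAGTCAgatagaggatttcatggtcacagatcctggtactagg
Mmp3: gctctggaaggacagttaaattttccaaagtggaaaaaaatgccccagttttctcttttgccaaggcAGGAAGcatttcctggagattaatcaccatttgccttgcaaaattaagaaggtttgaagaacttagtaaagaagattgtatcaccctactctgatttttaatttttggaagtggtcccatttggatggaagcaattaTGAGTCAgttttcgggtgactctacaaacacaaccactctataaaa
Mmp10: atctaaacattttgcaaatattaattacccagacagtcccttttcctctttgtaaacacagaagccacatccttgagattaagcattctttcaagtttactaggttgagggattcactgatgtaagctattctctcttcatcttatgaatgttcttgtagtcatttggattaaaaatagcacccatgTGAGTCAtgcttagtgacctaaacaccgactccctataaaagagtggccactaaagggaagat
Mmp15: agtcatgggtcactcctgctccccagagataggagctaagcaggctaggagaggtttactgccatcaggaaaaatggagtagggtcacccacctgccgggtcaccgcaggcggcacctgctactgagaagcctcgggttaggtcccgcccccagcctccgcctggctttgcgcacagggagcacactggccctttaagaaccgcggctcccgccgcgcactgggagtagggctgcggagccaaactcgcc

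An AP-1 match begins 35 bases before the start of Mmp13, 46 before Mmp3, 63 before Mmp10 and 44 before the later start of Mmp12, and none was found in the window of its first start or of Mmp15. AP-1 is the Fos and Jun factor through which growth factor signals reach many Mmp genes. The motif was present in 6.75% of 32851 promoter windows of all genes, in 22.2% of the 54 windows of the 49 members that the table holds, and in 18.5% of the 27 windows of tested members. Most of the members' matches were in the chromosome 9 cluster: Mmp13, Mmp12, Mmp1b, Mmp3, Mmp1a, Mmp10, Mmp20 and Mmp7. The others were in Adam19, Adam20, Adam25 and Adam29, of which only Adam19 was tested. These shares therefore do not describe the families outside that cluster. Other motifs searched on both strands were PEA3, in 37% of members' windows against 29.5% of all, TATAAA in 22.2% against 12.4%, the KLF motif CCNCNCCC in 51.9% against 45.9%, and the SMAD palindrome GTCTAGAC in none of 54 against 0.167%. A TATAAA match lies within 29 bases of the start of Mmp13, Mmp3 and Mmp10. Mmp1a, Mmp1b, Mmp20 and Mmp7 of the same cluster also had a TATAAA match in their windows. In the windows printed here no motif overlapped another. A match is a run of letters and not a measured binding site.

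Among the 33 tested members, 16 fell and 9 rose in Smad4KO against WT, at adjusted p under 0.05 in limma. That is 48.5% lower, where 17.4% of all 13662 tested genes were lower, and 27.3% higher, where 32.2% were. The members' median log2 fold change was -0.35 against 0.10 for all genes. Libraries of the groups did not overlap in 28 of 33 (84.8%, background 59.1%), and after scaling 18 fell (background 25.2%) and 9 rose (background 24.8%). In EgfrKO 10 fell (30.3%, background 12%) and 8 rose (24.2%, background 31.3%), with a median of 0.07 against 0.14. After scaling 12 fell (background 22.1%) and 4 rose (background 18.2%) there, and the median was -0.07. The groups did not overlap in 24 (72.7%, background 56%). In the Klf5KO-labelled libraries 22 rose (66.7%, background 55.2%) and 2 fell (6.06%, background 11.1%), with a median of 0.54 against 0.31. After scaling 16 rose (48.5%, background 24.9%) and 9 fell (27.3%, background 27.3%). Adamts12, which passed the filter only through this group, is among those that rose, before and after scaling. The groups did not overlap in 25 (75.8%, background 69%). The 3 contrasts share the WT libraries. Across them 4 members rose in all 3 (Adam10, Adam23, Mmp15 and Mmp28), 2 fell in all 3 (Mmp3 and Timp3), and Adamts10 was called in none. Of the 4, Adam10 in EgfrKO and Mmp28 in Klf5KO-labelled libraries were not called after scaling.

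**Figure D1:**
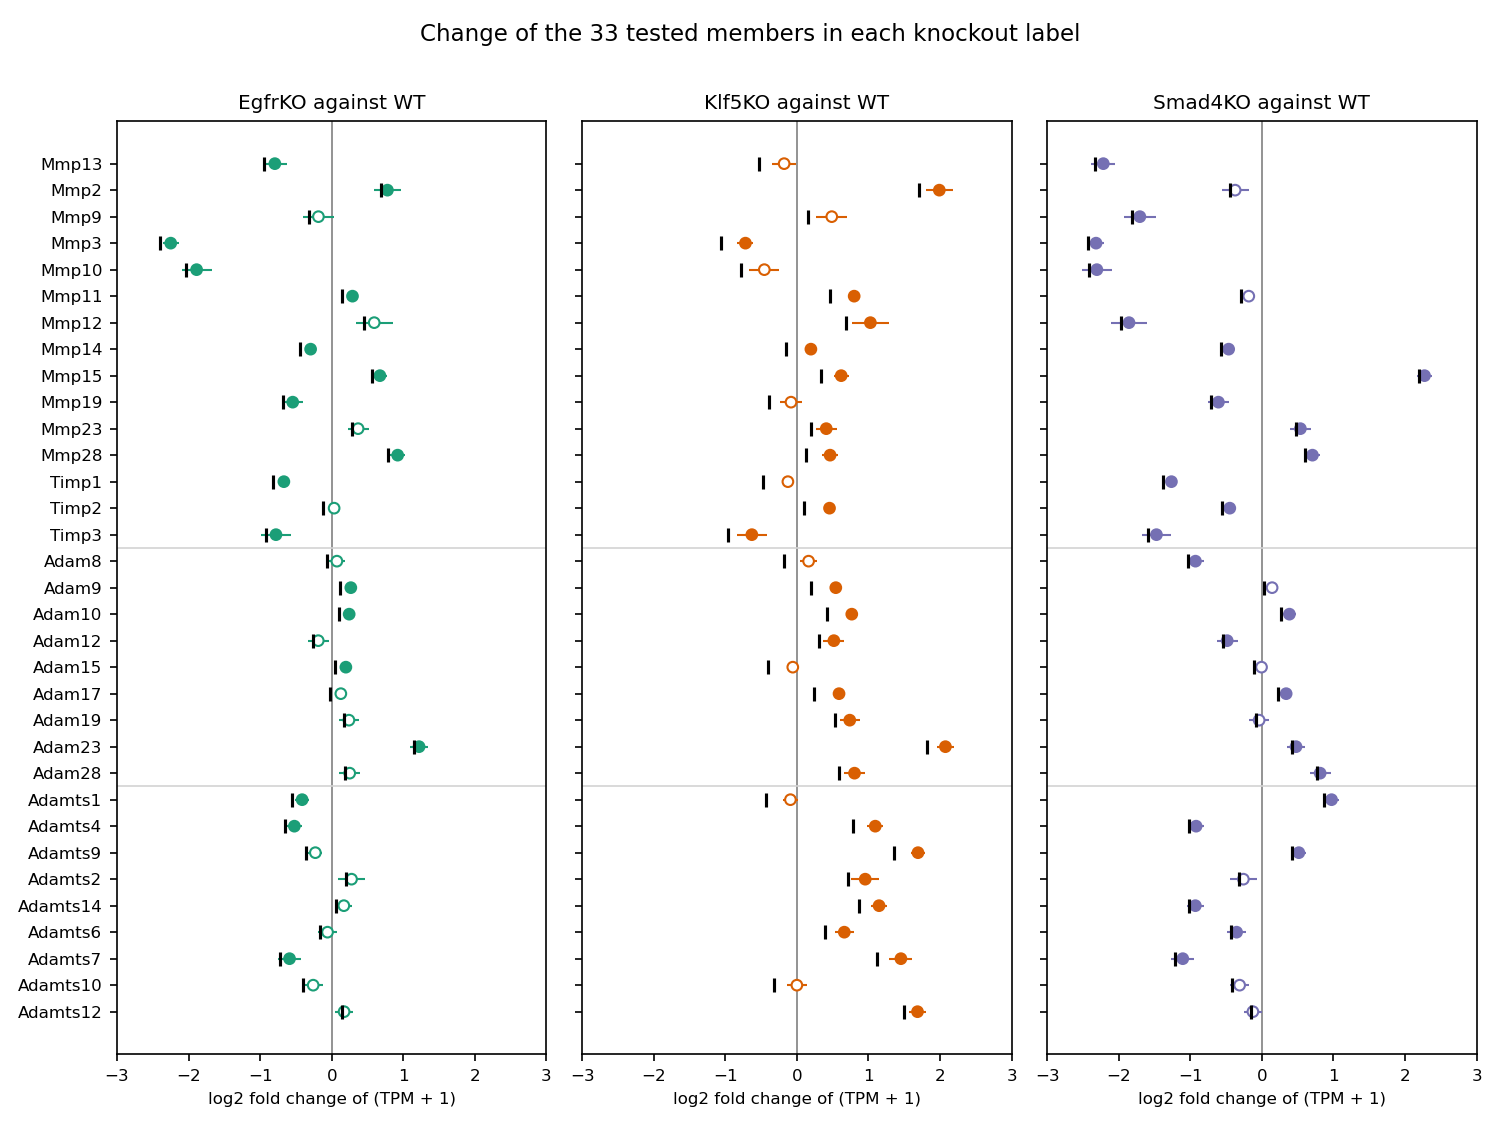
Log2 fold change of (TPM + 1) against WT for the 33 tested members in EgfrKO, Klf5KO-labelled and Smad4KO libraries, 3 libraries against 3. Circles are estimates from limma with their standard errors, filled where adjusted p was under 0.05, and black ticks are the estimates after median-of-ratios scaling. Adamts12 passed the filter on low values only through the Klf5KO-labelled group, so its filled circle there is a description and not a test. Mmp3 and Mmp10 lie left of 0 in EgfrKO and Smad4KO, and Mmp15 in Smad4KO is the point farthest right.

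Of the 4 tested genes of the chromosome 9 cluster, 4 fell in Smad4KO (17.4% of all genes did) and 3 fell in EgfrKO (12% of all genes). In Klf5KO-labelled libraries 1 rose and 1 fell (background 55.2% and 11.1%), and 0 and 3 after scaling (background 24.9% and 27.3%). The summed TPM of the 10 genes was 123 ± 20.2 in WT, 62.9 ± 1.52 in EgfrKO, 114 ± 26 in Klf5KO-labelled and 23.9 ± 2.37 in Smad4KO libraries (SD, n = 3). Mmp3, stromelysin-1, which cuts proteoglycans and laminin and activates other MMP precursors, was 41.3, 37.5 and 47 TPM in WT, 7.7, 7.79 and 8.52 in EgfrKO, 20.9, 26 and 28.7 in the Klf5KO-labelled libraries and 7.31, 7.95 and 7.48 in Smad4KO. Every EgfrKO and Smad4KO library lay below every Klf5KO-labelled library, and these below every WT library. The log2 fold change was -2.25 ± 0.11 (SE, adjusted p = 2.02e-07) in EgfrKO, -2.32 ± 0.11 (SE, adjusted p = 3.48e-08) in Smad4KO and -0.72 ± 0.11 (SE, adjusted p = 0.000166) in Klf5KO-labelled libraries. Mmp10, stromelysin-2, a close relative of Mmp3 with similar substrates, was 13.5, 21.6 and 21.2 TPM in WT, 5.62, 4.26 and 3.11 in EgfrKO, 13.7, 10.7 and 15.3 in the Klf5KO-labelled libraries and 2.83, 3.43 and 2.54 in Smad4KO. The 6 EgfrKO and Smad4KO libraries were below the other 6, and Klf5KO-labelled libraries overlapped WT. The log2 fold change was -1.89 ± 0.21 (SE, adjusted p = 3.54e-05) in EgfrKO and -2.31 ± 0.21 (SE, adjusted p = 3.55e-06) in Smad4KO. The Klf5KO-labelled value of -0.45 did not pass (adjusted p = 0.074), though it did without WT replicate 1 (adjusted p = 0.0132) and after scaling (adjusted p = 0.00591). Mmp3 and Mmp10 share 202 runs of 31 bases in GENCODE transcripts, 11.9% of those of Mmp10, so reads of one can be credited to the other. Between EgfrKO and Smad4KO neither was called, with a log2 difference of 0.07 for Mmp3 (95% interval -0.18 to 0.31) and 0.42 for Mmp10 (-0.04 to 0.88).

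Mmp13, collagenase-3, the main enzyme that opens fibrillar collagen in mice, was 37.8, 43.5 and 56.6 TPM in WT, 26.9, 26 and 24.3 in EgfrKO, 36.4, 34.7 and 50.6 in the Klf5KO-labelled libraries and 8.29, 11 and 7.91 in Smad4KO. Its Smad4KO libraries were at 0.197 times the WT mean and its EgfrKO libraries at 0.56 times, with no overlap with WT in either. The log2 fold change was -2.22 ± 0.17 (SE, adjusted p = 9.27e-07) in Smad4KO and -0.79 ± 0.17 (SE, adjusted p = 0.00301) in EgfrKO, and Smad4KO lay below EgfrKO as well (EgfrKO against Smad4KO 1.42 ± 0.17 (SE, adjusted p = 7.28e-05)). The Klf5KO-labelled libraries overlapped WT, with -0.18 ± 0.17 (SE, adjusted p = 0.373, and -0.52 after scaling, adjusted p = 0.0234).

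Mmp12, the macrophage elastase, was 9.71, 19 and 17.6 TPM in WT, 22.8, 22.9 and 23.1 in EgfrKO, 21.9, 29.8 and 46.9 in the Klf5KO-labelled libraries and 3.02, 3.69 and 3.44 in Smad4KO. All 3 Smad4KO libraries were below all others, while the 3 EgfrKO libraries were above the 3 of WT. It fell in Smad4KO, -1.86 ± 0.26 (SE, adjusted p = 0.000104), and rose in Klf5KO-labelled libraries, 1.03 ± 0.26 (SE, adjusted p = 0.00408), the latter lost after scaling (adjusted p = 0.0516). In EgfrKO the value of 0.59 ± 0.26 (SE) did not pass (adjusted p = 0.0822), and with the replicate number as a block it did (adjusted p = 0.0401). The direct difference between EgfrKO and Smad4KO was 2.45 ± 0.26 (SE, adjusted p = 2.97e-05). Of the 12 macrophage markers, 3 fell and 1 rose in Smad4KO, where 17.4% of all genes fell and 32.2% rose. Their sum in Smad4KO was 1045, 409 and 1025 TPM in replicates 1, 2 and 3, against 953, 1642 and 895 in WT. The part of macrophage RNA in the fall of Mmp12 was not tested.

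**Figure D2:**
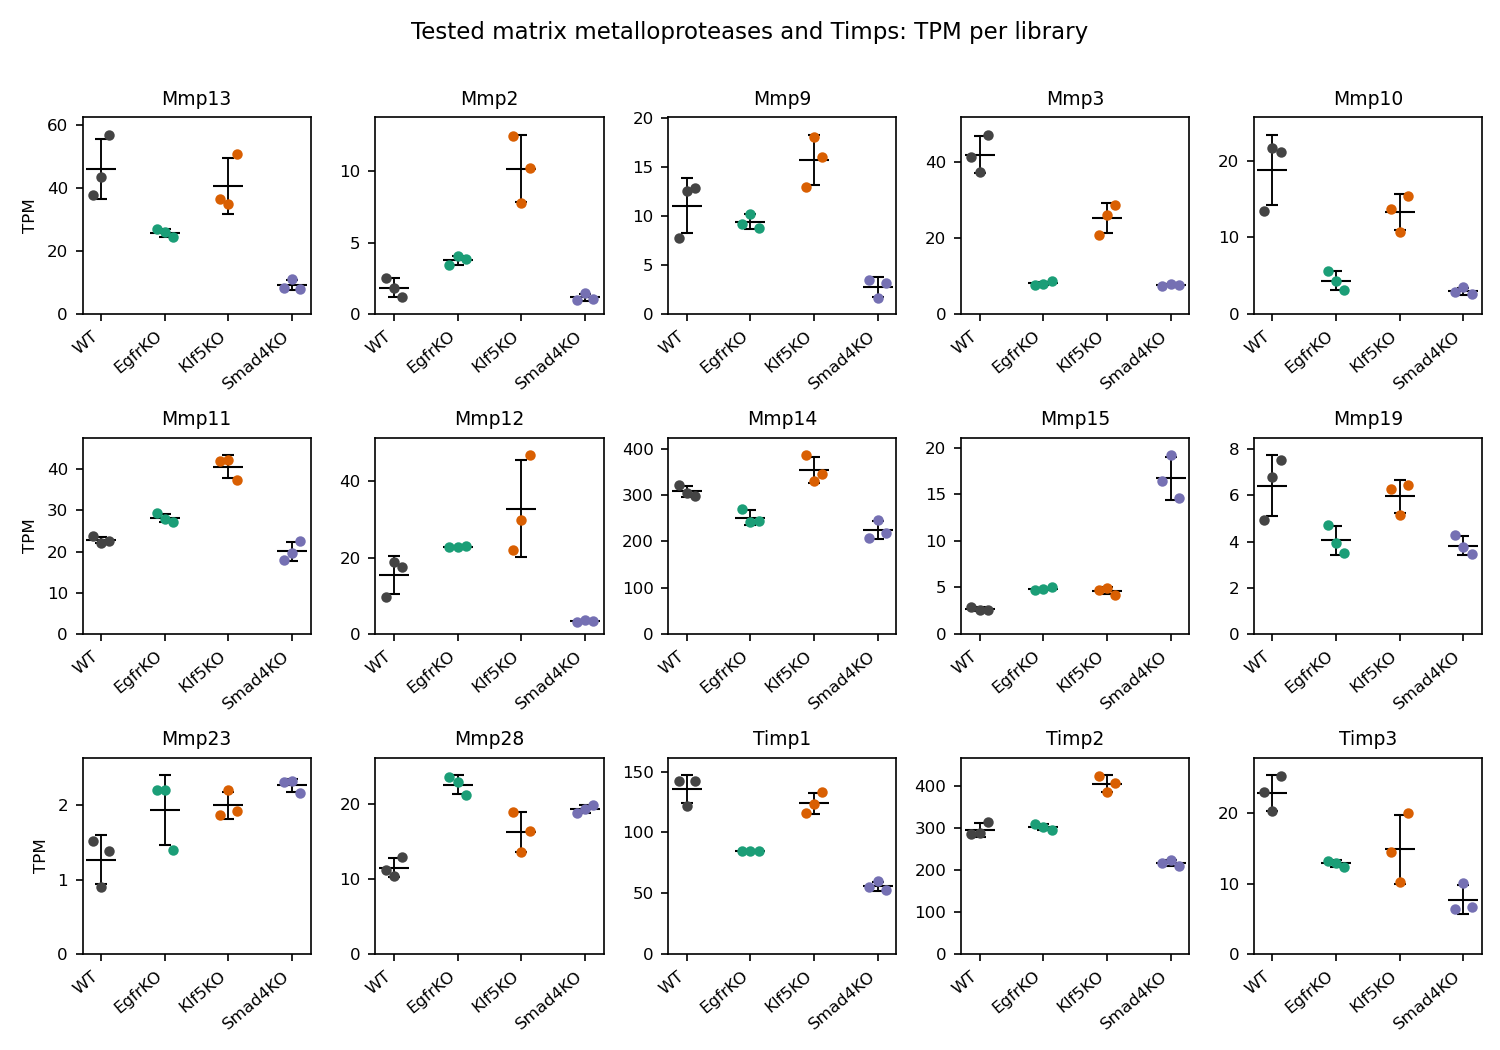
TPM of the 12 tested Mmp genes and the 3 tested Timp genes in each of the 12 libraries (points), with the mean and SD of each genotype label (n = 3, bars); every axis starts at 0. Mmp13, Mmp3, Mmp10 and Mmp12 are low in all 3 Smad4KO libraries, Mmp15 is high there at 14.6 to 19.2 TPM, and Mmp2 is high in the 3 Klf5KO-labelled libraries at 7.79 to 12.5 TPM.

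The 2 gelatinases, which cut denatured collagen and the collagen of basement membranes, were called in different knockouts. Mmp2 (chromosome 8, 92827290 to 92853421), gelatinase A, typically made by fibroblasts, was 2.5, 1.8 and 1.17 TPM in WT, 3.41, 4.05 and 3.81 in EgfrKO, 12.5, 7.79 and 10.2 in the Klf5KO-labelled libraries and 0.986, 1.44 and 1.01 in Smad4KO. All 3 Klf5KO-labelled libraries were above all EgfrKO libraries, and these above all WT libraries, which Smad4KO overlapped. It rose in Klf5KO-labelled libraries to 5.58 times WT, 1.99 ± 0.19 (SE, adjusted p = 5.38e-06), and rose in EgfrKO too, 0.78 ± 0.19 (SE, adjusted p = 0.00675). In Smad4KO the value was -0.37 ± 0.19 (SE, adjusted p = 0.125), which passed without WT replicate 3 (adjusted p = 0.0349). Of 12 tested fibroblast markers, 11 rose in Klf5KO-labelled libraries (background 55.2%), and 8 after scaling (background 24.9%). Their summed TPM was 751, 372 and 445 in replicates 1, 2 and 3 there and 165, 111 and 65.9 in WT. The sum was 173, 166 and 162 in EgfrKO and 75.4, 104 and 72.5 in Smad4KO. In EgfrKO, where Mmp2 also rose, 4 of the 12 markers rose and 1 fell (background 31.3% and 12%). After scaling 3 rose and 1 fell there (background 18.2% and 22.1%). Endothelial markers were also higher in Klf5KO-labelled libraries, with sums of 13.3 to 17.5 TPM against 2.59 to 3.66 in WT libraries. The part of RNA from either cell type in the result was not tested.

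Mmp9 (chromosome 2, 164940326 to 164955850), gelatinase B, made by myeloid cells and by carcinoma cells, was 7.78, 12.5 and 12.8 TPM in WT, 9.12, 10.2 and 8.79 in EgfrKO, 12.9, 18 and 16 in the Klf5KO-labelled libraries and 3.4, 1.57 and 3.18 in Smad4KO. The Smad4KO libraries were below the other 9. Mmp9 fell in Smad4KO to 0.246 times WT, -1.71 ± 0.22 (SE, adjusted p = 5.94e-05). It was not called in EgfrKO (-0.19 ± 0.22 SE, adjusted p = 0.522) or in Klf5KO-labelled libraries (0.49 ± 0.22 SE, adjusted p = 0.0687), although the latter passed without Klf5KO replicate 1 (adjusted p = 0.0491). The macrophage marker sums given for Mmp12 apply here too, and their part in the result was not tested.

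The membrane-anchored Mmp14 was the most abundant MMP, and Mmp15, of the same subfamily, was the member with the largest increase in Smad4KO. Mmp14 (chromosome 14, 54431598 to 54442456), MT1-MMP, which sits on the cell surface, cuts collagen and activates the precursor of Mmp2 with the help of Timp2, was 322, 305 and 299 TPM in WT, 269.6, 241 and 245 in EgfrKO, 386, 331 and 346 in the Klf5KO-labelled libraries and 208, 246 and 218 in Smad4KO. It fell in Smad4KO, -0.46 ± 0.07 (SE, adjusted p = 0.000313), and in EgfrKO, -0.29 ± 0.07 (SE, adjusted p = 0.00804), with every library of both below every WT library. In Klf5KO-labelled libraries it was called higher at 0.20 ± 0.07 (SE, adjusted p = 0.0349), but lower after scaling at -0.16 (adjusted p = 0.0487). Leaving out Klf5KO replicate 1 (adjusted p = 0.141) or 3 (adjusted p = 0.0524), or WT replicate 2 (adjusted p = 0.0827) or 3 (adjusted p = 0.0994), also ended the unscaled call, so no direction is given for it there.

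Mmp15, MT2-MMP, found mainly on epithelial cells, was 2.85, 2.58 and 2.52 TPM in WT, 4.68, 4.8 and 4.97 in EgfrKO, 4.7, 4.91 and 4.21 in the Klf5KO-labelled libraries and 16.4, 19.2 and 14.6 in Smad4KO. All 3 Smad4KO libraries were above the other 9, and the WT libraries were below all others. The log2 fold change was 2.27 ± 0.10 (SE, adjusted p = 2.37e-08) in Smad4KO, 0.67 ± 0.10 (SE, adjusted p = 0.000358) in EgfrKO and 0.62 ± 0.10 (SE, adjusted p = 0.00026) in Klf5KO-labelled libraries. Smad4KO differed from both other knockouts directly, with EgfrKO against Smad4KO at -1.60 ± 0.10 (SE, adjusted p = 7.56e-07) and Klf5KO against Smad4KO at -1.65 ± 0.10 (SE, adjusted p = 1.06e-07). Epithelial markers were also high in Smad4KO, where 9 of 10 tested rose (background 32.2%). Their summed TPM was 12900.1 to 13399 there against 6318 to 6763 in WT. In Klf5KO-labelled libraries, where Mmp15 rose too, 1 of the 10 markers rose and 8 fell (background 55.2% and 11.1%). In EgfrKO, where it also rose, 5 rose and 3 fell (background 31.3% and 12%). The part of epithelial RNA in the values of Mmp15 was not tested. The other membrane-type genes Mmp16, Mmp17, Mmp24 and Mmp25 stayed under 1 TPM in every library.

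Of the remaining MMPs, Mmp28 rose in each knockout, in Klf5KO-labelled libraries only before scaling, and Mmp11 rose in EgfrKO and Klf5KO-labelled libraries. Mmp28, epilysin, an MMP of resting epithelia, was 11.2, 10.4 and 12.9 TPM in WT, 23.7, 22.9 and 21.3 in EgfrKO, 19, 13.6 and 16.4 in the Klf5KO-labelled libraries and 18.8, 19.3 and 19.9 in Smad4KO. The WT libraries were below all 9 knockout libraries, with 0.92 ± 0.11 (SE, adjusted p = 5.64e-05) in EgfrKO and 0.71 ± 0.11 (SE, adjusted p = 0.000229) in Smad4KO, and the Klf5KO-labelled value of 0.47 (adjusted p = 0.00263) became 0.13 after scaling (adjusted p = 0.285). Its exons overlap those of 1700020L24Rik on the other strand, and the labels do not say whether counting used strand. Mmp11, stromelysin-3, which leaves the cell already active, was 23.7, 22.2 and 22.7 TPM in WT, 29.3, 28 and 27.3 in EgfrKO, 42.1, 42.3 and 37.4 in the Klf5KO-labelled libraries and 18, 19.7 and 22.6 in Smad4KO. The 3 Klf5KO-labelled libraries were above the other 9, 0.80 ± 0.08 (SE, adjusted p = 7.8e-06). The smaller EgfrKO value of 0.29 ± 0.08 (SE, adjusted p = 0.0134) was not called after scaling (adjusted p = 0.198) or without EgfrKO replicate 1 (adjusted p = 0.0506). The Smad4KO value of Mmp11, -0.18 (adjusted p = 0.0808), passed after scaling (adjusted p = 0.0146) and without Smad4KO replicate 3 (adjusted p = 0.0136). Mmp19, found in several tissues, had group means of 3.82 to 6.42 TPM and fell in EgfrKO (-0.54 ± 0.15 SE, adjusted p = 0.0116, and 0.0534 without WT replicate 3) and Smad4KO (-0.61 ± 0.15 SE, adjusted p = 0.0051). Its Klf5KO-labelled value of -0.08 (adjusted p = 0.646) was -0.38 after scaling (adjusted p = 0.0355). Mmp23, an atypical MMP held in the membrane by its N-terminal end, had group means of 1.27 to 2.27 TPM and rose in Smad4KO (0.54 ± 0.15 SE, adjusted p = 0.0103). In Klf5KO-labelled libraries it was called (0.41 ± 0.15 SE, adjusted p = 0.0278), but not after scaling (adjusted p = 0.277) or without WT replicate 2 (adjusted p = 0.116) or Klf5KO replicate 2 (adjusted p = 0.0827).

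The ADAM sheddases were among the most abundant members, with Adam9 and Adam10 the highest of the ADAMs in every group. The tested ADAMs were higher in 7 and lower in 0 of 9 in Klf5KO-labelled libraries (6 and 1 after scaling), 4 and 0 in EgfrKO (1 and 0) and 4 and 2 in Smad4KO (4 and 2). Of all genes 55.2%, 31.3% and 32.2% were higher and 11.1%, 12% and 17.4% lower in these groups, in the same order. After scaling these shares were 24.9%, 18.2% and 24.8% higher and 27.3%, 22.1% and 25.2% lower. Adam10 (chromosome 9, 70678944 to 70780229), which releases Notch, E-cadherin and some ligands of the EGF receptor, was 67.8, 69.4 and 74.4 TPM in WT, 87.2, 82.2 and 81.8 in EgfrKO, 129, 111 and 124 in the Klf5KO-labelled libraries and 89.6, 106 and 82.7 in Smad4KO. The WT libraries were below all 9 others. Adam10 rose in Klf5KO-labelled libraries, 0.77 ± 0.09 (SE, adjusted p = 1.46e-05), and in Smad4KO, 0.38 ± 0.09 (SE, adjusted p = 0.0029). The EgfrKO call (0.24 ± 0.09 SE, adjusted p = 0.0368) was lost after scaling (adjusted p = 0.314), with the replicate block (adjusted p = 0.0604) and without WT replicate 1, WT replicate 2 or any 1 EgfrKO library (0.0575 to 0.114).

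Adam17, the enzyme that sheds tumour necrosis factor, amphiregulin and TGF-alpha, was 25.4, 26.5 and 25.1 TPM in WT, 29.5, 27.2 and 27.7 in EgfrKO, 42.1, 37.2 and 38.2 in the Klf5KO-labelled libraries and 32.3, 35.1 and 30.8 in Smad4KO. All Klf5KO-labelled and Smad4KO libraries were above all WT libraries, with 0.59 ± 0.07 (SE, adjusted p = 1.62e-05) and 0.34 ± 0.07 (SE, adjusted p = 0.00129), and after scaling 0.25 and 0.23 (adjusted p = 0.00128 and 0.00194). In EgfrKO the log2 value of 0.13 did not pass (adjusted p = 0.141). Its exons overlap those of Iah1 on the other strand. Adam9, a widely expressed sheddase, was 116, 127 and 129 TPM in WT, 158, 146 and 145 in EgfrKO, 183, 174 and 186 in the Klf5KO-labelled libraries and 135, 145 and 131 in Smad4KO. The WT libraries were below the others and the Klf5KO-labelled libraries above them. Adam9 rose in Klf5KO-labelled libraries, 0.54 ± 0.06 (SE, adjusted p = 1.11e-05), and in EgfrKO, 0.27 ± 0.06 (SE, adjusted p = 0.00341), the latter not after scaling (adjusted p = 0.0887). Adam15, an ADAM with an integrin-binding motif, was 58.8, 57.1 and 53.9 TPM in WT, 64.8, 65 and 65.2 in EgfrKO, 52, 56.4 and 54.8 in the Klf5KO-labelled libraries and 57.3, 57.7 and 54.1 in Smad4KO. The EgfrKO libraries were above the other 9. Adam15 rose in EgfrKO (0.20 ± 0.05 SE, adjusted p = 0.00805), where scaling removed the call (adjusted p = 0.516), and scaling gave a call of -0.40 in Klf5KO-labelled libraries (adjusted p = 0.000141), where the unscaled value was -0.06. The antisense gene 4731419I09Rik shares 1095 of the 6391 runs of 31 bases in the transcripts of Adam15.

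Adam8, an ADAM of leukocytes that carcinoma cells can also express, was 22.1, 30.6 and 25.7 TPM in WT, 29.6, 26.1 and 26.4 in EgfrKO, 26.4, 27.5 and 34.1 in the Klf5KO-labelled libraries and 13.3, 13.8 and 12.4 in Smad4KO. The 3 Smad4KO libraries were below the other 9, at 0.503 times WT, -0.93 ± 0.12 (SE, adjusted p = 5.52e-05), and the groups overlapped in the other comparisons with WT. The macrophage marker sum was 409 to 1045 TPM in Smad4KO and 895 to 1642 in WT, and its part in the fall of Adam8 was not tested. Adam23, which lacks protease activity and acts in cell adhesion, was 1.16, 0.708 and 0.861 TPM in WT, 3.46, 3.72 and 3.12 in EgfrKO, 7.78, 6.19 and 7.14 in the Klf5KO-labelled libraries and 1.57, 1.8 and 1.56 in Smad4KO. Each knockout was above WT without overlap, in the order Klf5KO-labelled, EgfrKO, Smad4KO, with 2.08 ± 0.12 (SE, adjusted p = 1.86e-07), 1.22 ± 0.12 (SE, adjusted p = 1.69e-05) and 0.48 ± 0.12 (SE, adjusted p = 0.00676). Neighbours in that order differed as well, -0.86 ± 0.12 (SE, adjusted p = 0.00012) for EgfrKO against Klf5KO and 0.74 ± 0.12 (SE, adjusted p = 0.000722) for EgfrKO against Smad4KO. The low genes Adam12 and Adam19, the meltrins of mesenchymal cells, had Klf5KO-labelled means of 1.96 and 2.03 TPM and WT means of 1.05 and 0.822. Adam19 rose (0.74 ± 0.14 SE, adjusted p = 0.000746) and Adam12 rose before scaling (0.52, adjusted p = 0.00829, and 0.0712 after it). Adam12 fell in Smad4KO (-0.48 ± 0.15 SE, adjusted p = 0.0166), which did not pass once WT replicate 1 (adjusted p = 0.0584) or 2 (adjusted p = 0.0525) was left out. Adam28, best known from lymphoid cells, rose in Klf5KO-labelled (0.81 ± 0.15 SE, adjusted p = 0.000501) and Smad4KO libraries (0.81 ± 0.15 SE, adjusted p = 0.000725), to 2.25 and 2.28 TPM from 0.865 in WT. Of T and NK cell markers, 5 of 8 tested rose in Klf5KO-labelled libraries (background 55.2%) and 2 of 8 in Smad4KO (background 32.2%). In EgfrKO 5 of 8 rose (background 31.3%), while Adam28 was not called there (adjusted p = 0.187). The part of these cells was not tested. The other 24 ADAM genes, many of them known from testis, were not tested.

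**Figure D3:**
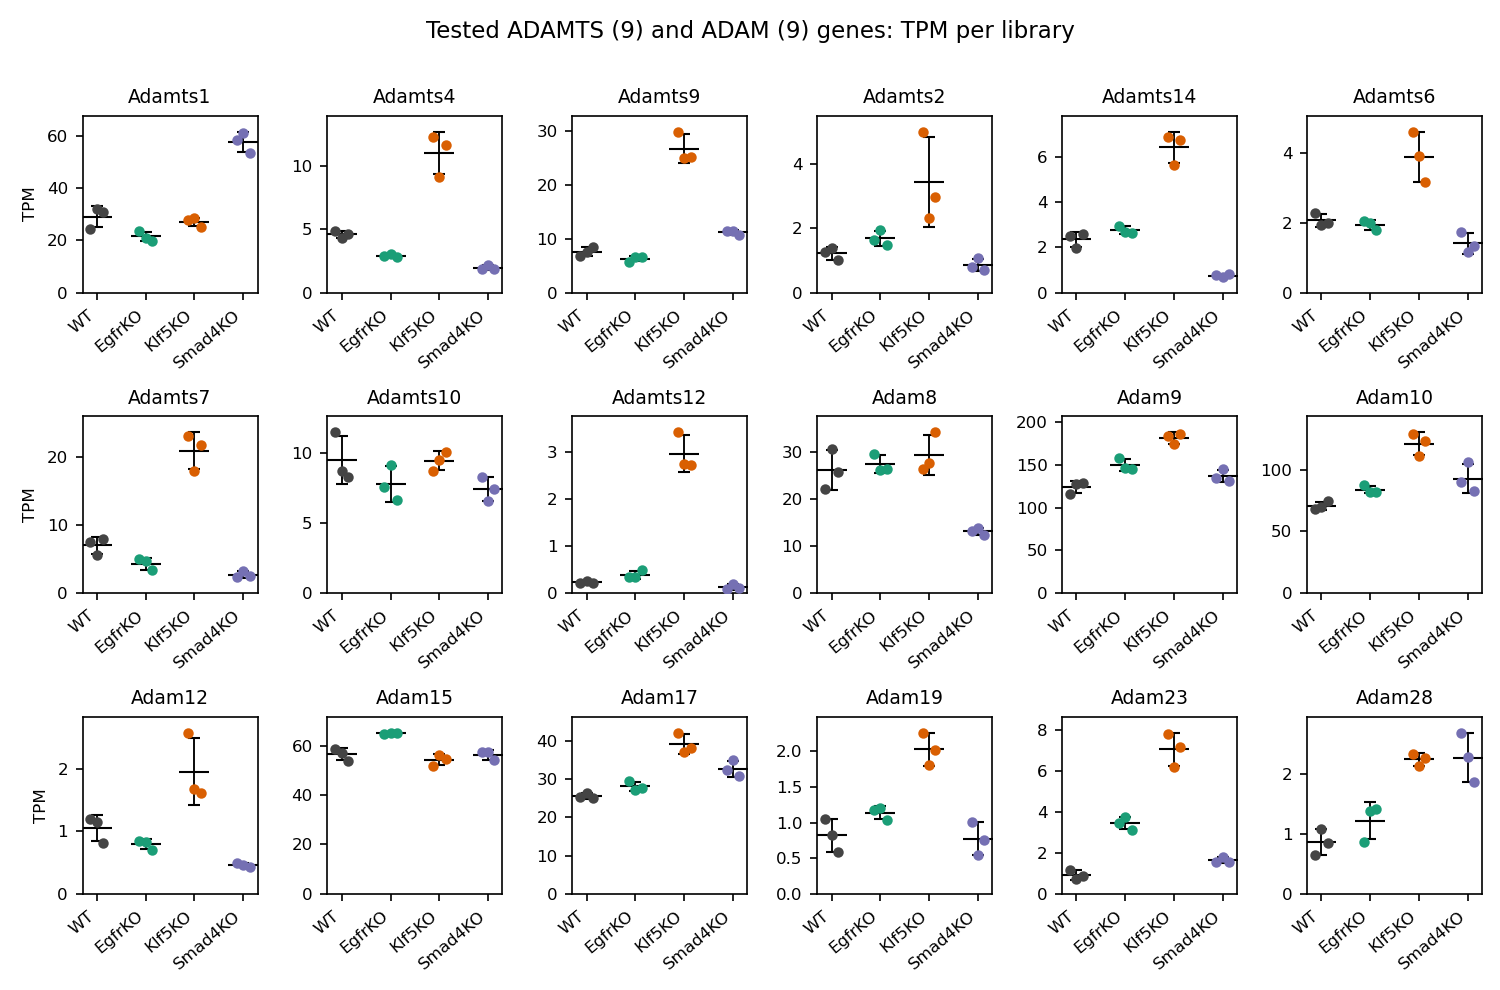
TPM of the 9 tested Adamts genes and the 9 tested Adam genes in each of the 12 libraries (points), with the mean and SD of each genotype label (n = 3, bars); every axis starts at 0. Adamts4, Adamts9, Adamts14, Adamts7 and Adamts12 are highest in the 3 Klf5KO-labelled libraries, and Adamts1 is highest in the 3 Smad4KO libraries at 53.7 to 61.4 TPM.

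Of the 9 tested ADAMTS genes, 7 rose and none fell in the Klf5KO-labelled libraries, where 55.2% of all genes rose and 11.1% fell. Adamts1 and Adamts10 were not called there, and the 7 include Adamts12, which passed the filter on low values only through this group. After scaling 7 rose, Adamts12 again among them, and 1 fell there (background 24.9% and 27.3%). In EgfrKO none rose and 3 fell (background 31.3% and 12%), and 0 and 5 after scaling (background 18.2% and 22.1%). In Smad4KO 2 rose and 4 fell (background 32.2% and 17.4%), and 2 and 5 after scaling (background 24.8% and 25.2%). Fibroblast marker sums were 372 to 751 TPM in Klf5KO-labelled and 65.9 to 165 in WT libraries. T and NK cell markers (18.8 to 25 against 5.13 to 10.8) and endothelial markers (13.3 to 17.5 against 2.59 to 3.66) were higher there too. In EgfrKO, where no tested ADAMTS gene rose, T and NK cell markers summed to 16.1 to 19.1 and endothelial markers to 7.47 to 9.88, also above WT. The part of any of these cell types was not tested.

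Among the enzymes that cut aggrecan and versican, Adamts9 (chromosome 6, 92772699 to 92944450) was 6.81, 7.47 and 8.49 TPM in WT, 5.76, 6.65 and 6.55 in EgfrKO, 29.9, 25.1 and 25.3 in the Klf5KO-labelled libraries and 11.5, 11.5 and 10.7 in Smad4KO. The 4 genotypes did not overlap. Adamts9 rose in Klf5KO-labelled libraries, 1.69 ± 0.10 (SE, adjusted p = 1.57e-07), and in Smad4KO, 0.52 ± 0.10 (SE, adjusted p = 0.000912). In EgfrKO the value of -0.23 (adjusted p = 0.0749) passed after scaling (adjusted p = 0.00941) and without WT replicate 1 (adjusted p = 0.0424). A pair of antisense genes, A730049H05Rik and Gm15737, overlaps its exons. Adamts4, aggrecanase-1, was 4.85, 4.3 and 4.61 TPM in WT, 2.89, 3.0 and 2.77 in EgfrKO, 12.3, 9.13 and 11.6 in the Klf5KO-labelled libraries and 1.87, 2.17 and 1.82 in Smad4KO. The 4 genotypes did not overlap: it rose in Klf5KO-labelled libraries, 1.10 ± 0.11 (SE, adjusted p = 8.13e-06), and fell in EgfrKO, -0.52 ± 0.11 (SE, adjusted p = 0.00311), and Smad4KO, -0.92 ± 0.11 (SE, adjusted p = 3.74e-05). Adamts1, a versican-cutting enzyme with antiangiogenic activity, was 24.4, 32.1 and 31 TPM in WT, 23.6, 21.1 and 19.9 in EgfrKO, 27.8, 28.5 and 25.4 in the Klf5KO-labelled libraries and 58.6, 61.4 and 53.7 in Smad4KO. The 3 Smad4KO libraries were above the other 9, and EgfrKO libraries below WT. Adamts1 rose in Smad4KO, 0.97 ± 0.10 (SE, adjusted p = 1.15e-05), fell in EgfrKO, -0.41 ± 0.10 (SE, adjusted p = 0.00695), and in Klf5KO-labelled libraries was -0.09 (adjusted p = 0.459), or -0.43 after scaling (adjusted p = 0.00197). Adamts1 and Adamts4 thus went opposite ways in Smad4KO, where Adamts4 was at 0.426 and Adamts1 at 1.99 times WT. Adamts5, the other main aggrecanase and like Adamts1 a gene of chromosome 16, stayed under 1 TPM.

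The procollagen-trimming enzymes rose in Klf5KO-labelled libraries as well. Adamts14, which removes the N-terminal propeptide of fibrillar procollagen, was 2.5, 1.96 and 2.59 TPM in WT, 2.97, 2.66 and 2.63 in EgfrKO, 6.88, 5.63 and 6.75 in the Klf5KO-labelled libraries and 0.763, 0.682 and 0.81 in Smad4KO. It rose in Klf5KO-labelled libraries, 1.15 ± 0.11 (SE, adjusted p = 7.02e-06), and fell in Smad4KO, -0.93 ± 0.11 (SE, adjusted p = 4.16e-05), with no overlap in either. Adamts2, with the same function, had a mean of 1.21 TPM in WT and 3.42 in Klf5KO-labelled libraries (0.96 ± 0.19 SE, adjusted p = 0.00105) and was called in neither other knockout. Adamts7, which cuts the cartilage protein COMP, was 7.5, 5.65 and 8.0 TPM in WT, 5.02, 4.69 and 3.36 in EgfrKO, 23.1, 18 and 21.8 in the Klf5KO-labelled libraries and 2.35, 3.27 and 2.57 in Smad4KO. The 4 genotypes did not overlap. It rose in Klf5KO-labelled libraries, 1.45 ± 0.16 (SE, adjusted p = 1.39e-05), and fell in Smad4KO, -1.11 ± 0.16 (SE, adjusted p = 0.000146). The fall in EgfrKO, -0.59 ± 0.16 (SE, adjusted p = 0.0118), was lost without WT replicate 3 (adjusted p = 0.0506). Adamts12, the closest relative of Adamts7, was 0.206, 0.265 and 0.223 TPM in WT, 0.336, 0.347 and 0.487 in EgfrKO, 3.43, 2.76 and 2.74 in the Klf5KO-labelled libraries and 0.0946, 0.193 and 0.101 in Smad4KO. The Klf5KO-labelled mean was 12.8 times that of WT, where the gene was near 0. Because it passed the filter only through that group, this difference is a description and no test is given for it. Adamts6, a regulator of fibrillin matrix, rose in Klf5KO-labelled libraries (0.66 ± 0.13 SE, adjusted p = 0.00105). Its fall in Smad4KO (-0.35, adjusted p = 0.0462) was lost without WT replicate 1, 2 or 3 or Smad4KO replicate 2 or 3 (0.0668 to 0.149). Adamts10, its closest relative, was called in no contrast against WT, and after scaling it was lower in EgfrKO (-0.40, adjusted p = 0.0374) and Smad4KO (-0.41, adjusted p = 0.0251).

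All 3 tested Timps fell in Smad4KO, where 7 of 12 tested MMPs fell and 3 rose (8 and 3 after scaling). Of all genes 17.4% fell and 32.2% rose there (25.2% and 24.8% after scaling). Timp1, a secreted inhibitor of most MMPs that is on the X chromosome, was 142, 122 and 142 TPM in WT, 84.7, 84.2 and 84.9 in EgfrKO, 116, 123 and 133 in the Klf5KO-labelled libraries and 55.1, 59.7 and 52.3 in Smad4KO. It fell in Smad4KO, -1.26 ± 0.07 (SE, adjusted p = 1.04e-07), and fell in EgfrKO, -0.67 ± 0.07 (SE, adjusted p = 2.95e-05), with the 3 Smad4KO libraries below the 3 of EgfrKO (EgfrKO against Smad4KO 0.60 ± 0.07 (SE, adjusted p = 8.35e-05)). The Klf5KO-labelled value was -0.12 (adjusted p = 0.147), which passed without WT replicate 2 (adjusted p = 0.0279) and was -0.48 after scaling (adjusted p = 0.000587). Timp2, the adaptor that brings pro-Mmp2 to Mmp14, was 284, 286 and 312 TPM in WT, 308, 301 and 295 in EgfrKO, 423, 383 and 406 in the Klf5KO-labelled libraries and 215, 223 and 208 in Smad4KO. The Smad4KO libraries were below the other 9 and the Klf5KO-labelled libraries above them. Timp2 fell in Smad4KO, -0.45 ± 0.05 (SE, adjusted p = 2.19e-05), and was called higher in Klf5KO-labelled libraries at 0.46 ± 0.05 (SE, adjusted p = 1.5e-05), a call lost after scaling (adjusted p = 0.0912). EgfrKO libraries overlapped WT in Timp2.

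Timp3 (chromosome 10, 86300412 to 86349505), which binds to matrix and also inhibits Adam17 and ADAMTS enzymes, was 23, 20.3 and 25.4 TPM in WT, 13.3, 13 and 12.3 in EgfrKO, 14.5, 10.2 and 20.0 in the Klf5KO-labelled libraries and 6.36, 10.1 and 6.71 in Smad4KO. The 9 knockout libraries were below every WT library. Timp3 fell in Smad4KO, -1.47 ± 0.21 (SE, adjusted p = 0.00011), and in EgfrKO, -0.78 ± 0.21 (SE, adjusted p = 0.0102). In Klf5KO-labelled libraries the fall of -0.63 ± 0.21 (SE, adjusted p = 0.018) did not pass without WT replicate 3 (adjusted p = 0.0618) or Klf5KO replicate 2 (adjusted p = 0.0743). Its exons overlap those of Syn3 on the other strand, and their GENCODE transcripts share 1707 of its 8071 runs of 31 bases. Timp4 was under 1 TPM in all libraries. Summed TPM of the 23 Mmp genes was 489.9 ± 12.5 (SD, n = 3) in WT, 391 ± 18.8 in EgfrKO, 566 ± 30.2 in Klf5KO-labelled and 315 ± 23.5 in Smad4KO libraries. For the 4 Timp genes the sums were 453 ± 25.6, 399 ± 6.88, 543 ± 22.7 and 279 ± 12.8. In unscaled TPM both sums were lowest in Smad4KO and highest in Klf5KO-labelled libraries, with the 4 genotypes in the same order. The Mmp sum is mostly Mmp14 and the Timp sum mostly Timp2. In Klf5KO-labelled libraries scaling turned the Mmp14 call to lower and ended the Timp2 call. Size factors were 0.891 to 0.917 in WT and 1.13 to 1.2 in Klf5KO-labelled libraries. The sums given here were not scaled, so their order of WT and Klf5KO-labelled libraries holds for unscaled TPM only.

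**Figure D4:**
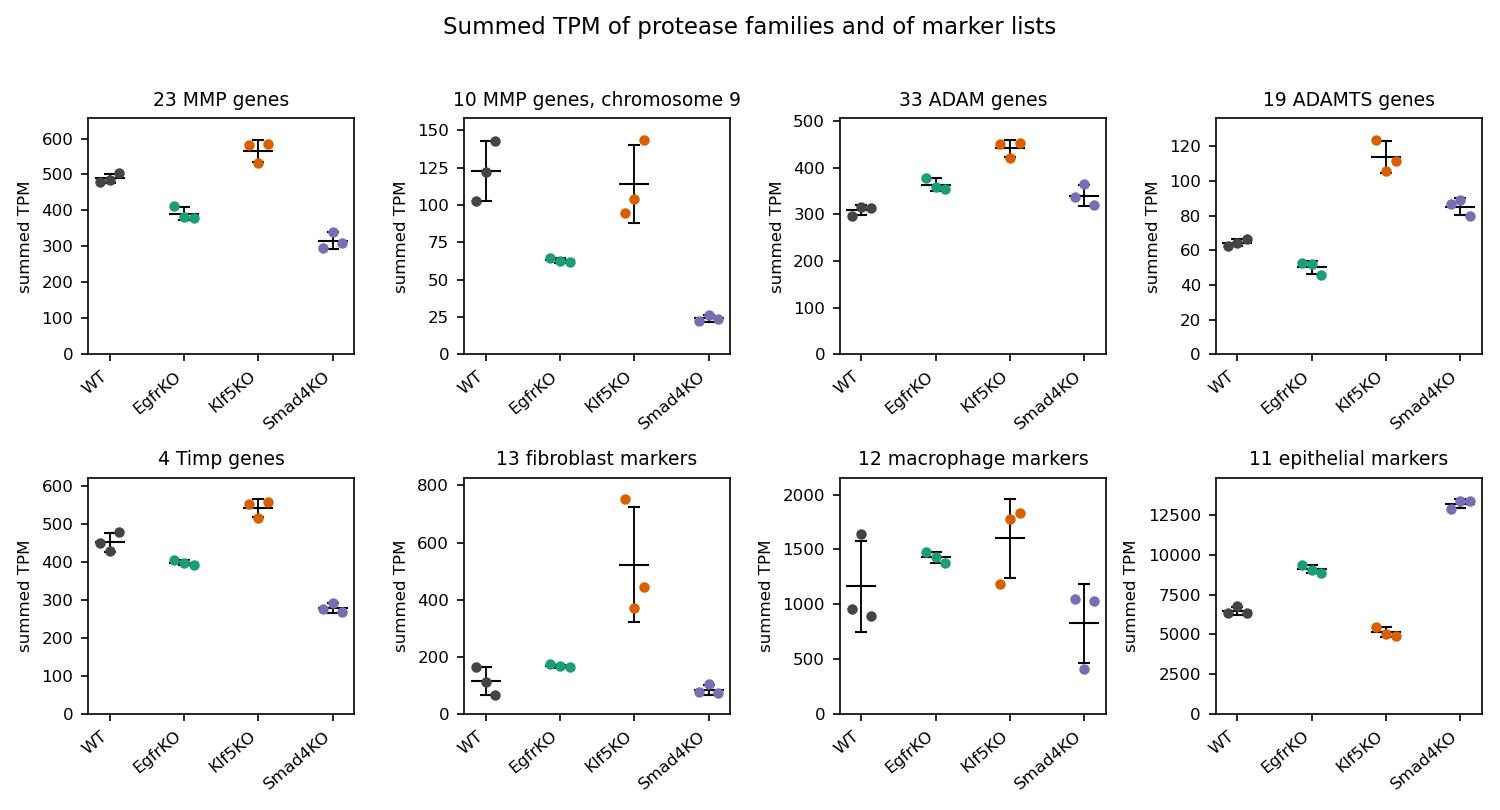
Summed TPM per library (points) of the 4 families, of the 10 Mmp genes on chromosome 9 and of 3 lists of cell type markers, with the mean and SD of each genotype label (n = 3, bars); every axis starts at 0. The chromosome 9 genes sum to 21.9 to 26.5 TPM in Smad4KO and 102 to 143 in WT, and the fibroblast markers are highest in the Klf5KO-labelled libraries.

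The knockouts also differed from each other. Between EgfrKO and Klf5KO-labelled libraries 25 members were lower in EgfrKO and 2 higher, 75.8% and 6.06%, where 40.5% and 14.7% of all genes were (55.2% in either direction). After scaling 20 were lower and 2 higher (background 25.6% and 26.4%). The 2 higher ones were Adam15 and Mmp28. Adamts12, which passed the filter only through the Klf5KO-labelled group, is among the 25. Between Klf5KO-labelled and Smad4KO libraries 26 were higher and 2 lower in the former (78.8% and 6.06%, background 45.5% and 18.3%), and the 2 lower ones were Adamts1 and Mmp15. After scaling 23 were higher and 4 lower (background 29.7% and 30.8%, and 63.8% in either direction before scaling). Adamts12 is among the 26 as well, with the same limit. Between EgfrKO and Smad4KO 14 were higher and 5 lower in EgfrKO (42.4% and 15.2%, background 18.7% and 14.5%, and 33.2% in either direction). After scaling 15 were higher and 5 lower (background 17.1% and 19%). Mmp12, Mmp9 and Mmp13 were among the higher there, with Mmp9 at 1.52 ± 0.22 (SE, adjusted p = 0.000312), and Mmp15, Adamts1 and Adamts9 among the lower, with Adamts1 at -1.39 ± 0.10 (SE, adjusted p = 1.86e-06).

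Genes that activate, guide or restrain these proteases were followed with a list of 36, of which 26 were tested. In EgfrKO 6 rose and 12 fell (background 31.3% and 12%), and 5 and 14 after scaling (background 18.2% and 22.1%). In Klf5KO-labelled libraries 9 rose and 8 fell (background 55.2% and 11.1%), and 4 and 12 after scaling (background 24.9% and 27.3%). In Smad4KO 6 rose and 11 fell (background 32.2% and 17.4%), and 5 and 14 after scaling (background 24.8% and 25.2%). Tspan15, a tetraspanin that carries Adam10 to the cell surface and steers its choice of substrate, was 25.6, 26.7 and 25.4 TPM in WT, 71.3, 64.3 and 64.1 in EgfrKO, 35.1, 24.4 and 29.3 in Klf5KO-labelled and 55.5, 63.5 and 59.9 in Smad4KO libraries. It rose in EgfrKO, 1.33 ± 0.11 (SE, adjusted p = 3.33e-06), and Smad4KO, 1.17 ± 0.11 (SE, adjusted p = 3.37e-06). Serpine2, a secreted inhibitor of serine proteases, fell in Smad4KO to 0.171 times WT (-2.15 ± 0.13 SE, adjusted p = 1.37e-07), and Serpinb2, an inhibitor of urokinase, fell there to 0.252 ± 0.044 TPM from 1.54 ± 0.38 in WT (adjusted p = 0.000385). Lcn2, a secreted protein that forms a complex with Mmp9, was 56.6, 49 and 40.2 TPM in WT, 15.8, 14.5 and 17.1 in EgfrKO, 7.31, 13.7 and 5.69 in Klf5KO-labelled and 83.6, 74.9 and 71.7 in Smad4KO libraries. It fell in EgfrKO (-1.55 ± 0.23 SE, adjusted p = 0.000279) and Klf5KO-labelled libraries (-2.39 ± 0.23 SE, adjusted p = 5.38e-06). Thbs1, thrombospondin-1, was 0.329 times WT in EgfrKO and 0.366 times in Smad4KO (adjusted p = 1.07e-06 and 5.7e-07), and rose to 1.96 times WT in Klf5KO-labelled libraries (adjusted p = 1.03e-05). Thbs2, of the same family, rose in Klf5KO-labelled libraries (2.72 ± 0.22 SE, adjusted p = 1.7e-06) and EgfrKO (1.14 ± 0.22 SE, adjusted p = 0.00171). Of the ADAMTS-like genes, which lack the protease domain, Adamtsl3 fell in Smad4KO to 0.116 ± 0.00316 TPM from 2.5 ± 0.314 in WT and Adamtsl5 fell in Klf5KO-labelled libraries to 0.232 times WT (adjusted p = 1.91e-06 and 1.76e-07). Reck, a membrane-anchored inhibitor of MMPs, stayed under 1 TPM in every library.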

How the data were processed

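The values used are the deposited TPM, which the authors made for each gene symbol in each library. Salmon and the mm10 build appear in the list of tools per the submitters' processing notes, without a version, an annotation or a way of summing to genes. Because TPM has a fixed total in every library, read depth is unknown, and intervals for counting error were not computed. Library columns were assigned through the sample titles, and genotypes through the labels. On the log2(TPM + 1) scale, the 13662 genes with at least 1 TPM in at least 3 libraries were fitted with limma 3.58.1 in R 4.3.3 (4 genotype means, all 12 libraries, eBayes with trend), and 6 contrasts were tested two-sided with Benjamini-Hochberg adjustment over all genes within each contrast, at a threshold of 0.05. Folds on this scale understate changes of low genes. The fitting script was tested on simulated data made from these genes: in the simulated EgfrKO contrast 68.1% of changes of 0.5, 100% of changes of 1 and 98.5% of changes of 2 on the log2 scale were recovered. Changes of these sizes were planted in 69, 66 and 65 of the 13662 genes, far fewer than the real contrasts called. All of them lay above a set mean level, so the rates do not cover the low members.

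The members, the gene lists and the motifs were chosen with earlier results of these data known, so their counts are descriptions. A tested member was given in every library if a genotype mean reached 10 TPM or a called log2 change against WT reached 1, and the listed partner genes were named if called with a log2 change of at least 1 against WT, except for an item that is not reported here; other members were given by means, and Reck was named after its values were seen. Promoters and gene coordinates come from RefSeq's tables of GRCm38.p6, which hold coordinates for all 79 members and a promoter for 49. Shared runs of 31 bases and exon overlaps come from GENCODE M21. Alternatives were a pseudocount of 0.1, no filter, a stricter filter (mean of at least 5 TPM), median-of-ratios scaling, no trend, fitting only the 2 groups of a contrast, a block for replicate number, and leaving out each library of a contrast in turn.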

Additional observations from a re-analysis of the deposited data

How the results depend on the processing

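Scaling by the median of ratios moved the members higher in EgfrKO from 8 to 4 and those lower in Klf5KO-labelled libraries from 2 to 9, and it turned Mmp14 in Klf5KO-labelled libraries from 0.20 to -0.16, the single reversal among 198 values of a member in a contrast. A stricter filter, which tests fewer genes, left 138 values of a member in a contrast, and all of them kept the call they had. It counted 12 members higher in Klf5KO-labelled libraries instead of 22, because the others of the 22 were no longer tested. Without 1 library at a time, the members called in EgfrKO were 6 to 8 higher and 8 to 11 lower, in Klf5KO-labelled libraries 20 to 22 and 1 to 3, and in Smad4KO 9 to 9 and 14 to 16. The count of 1 came without WT replicate 3 or Klf5KO replicate 2. For the contrasts between knockouts the ranges were 24 to 26, 14 to 19 and 28 to 29 for EgfrKO with Klf5KO, EgfrKO with Smad4KO and Klf5KO with Smad4KO. Of 1188 single values refitted without a library, 52 lost their call and 12 gained one.

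The replicate block left the counts against WT at 8 higher and 10 lower in EgfrKO, 22 and 2 in Klf5KO-labelled and 9 and 16 in Smad4KO libraries, and changed 2 single calls, on Adam10 and Mmp12 in EgfrKO. Deviations of same-numbered libraries correlated at -0.149 to 0.116 across genes, and 7 of 18 were highest with their own number, so the numbers are not taken to pair the samples. The unknown depth limits what can be said of members under 1 TPM.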

Other observations

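Members too low for the test were fitted once with no filter, and the genes named here were chosen after their values were seen. Mmp8, the neutrophil collagenase, was higher in EgfrKO, at 0.942 TPM against 0.317 in WT (log2 fold change 0.57, adjusted p = 0.0195), and in Klf5KO-labelled libraries, at 1.1 TPM against 0.317 in WT (log2 fold change 0.67, adjusted p = 0.00474). Of the neutrophil markers, 1 of 5 tested rose and 2 fell in each of these groups. Of all genes 31.3% rose and 12% fell in EgfrKO, and 55.2% and 11.1% in Klf5KO-labelled libraries. The membrane-type genes Mmp17 and Mmp25, both held by a lipid anchor, were higher in Klf5KO-labelled libraries, Mmp17 at 0.719 TPM against 0.245 in WT (log2 fold change 0.46, adjusted p = 0.000388) and Mmp25 at 0.763 TPM against 0.156 in WT (log2 fold change 0.61, adjusted p = 0.0016). Adam33, known from fibroblasts and smooth muscle, was higher in EgfrKO, at 0.631 TPM against 0.135 in WT (log2 fold change 0.52, adjusted p = 0.00381), and in Smad4KO, at 0.518 TPM against 0.135 in WT (log2 fold change 0.42, adjusted p = 0.00931). Adam3, known from sperm, was 0.855, 0.804 and 0.813 TPM in EgfrKO and 0.287, 0.225 and 0.298 in WT (adjusted p = 0.00312). The number of reads behind these low levels is not known.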
